A study of Mus musculus with 12 samples.

Results

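The 40 genes described here drive or restrain the mammalian cell cycle and were chosen by name. A gene was counted as having a peak when the midpoint of a deposited ChIP-seq peak lay inside it or within 5 kb of its start or end. The gene positions are those of RefSeq for GRCm38.p6, whose coordinates are those of mm10. All 40 names matched, among 21887 protein-coding genes in all. By their textbook roles 14 were placed in G1, 15 in S phase and 11 in mitosis.

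The series measured back skin of mice aged 8 to 10 weeks in the growth phase of the hair cycle (anagen) by chromatin immunoprecipitation and sequencing. Its 12 samples form 6 groups of 2, namely p53 in K17KO skin at 6 h and at T0, p53 in wild-type (WT) skin at 6 h and at T0, and H3K4me3 in WT skin at 6 h and at T0. Every sample's labels name ionizing radiation as the treatment, T0 included, and the protocol gives a dose of 5 Gy. The mutant genotype is written K17KO in the labels. The sources used here do not give its allele, the strain, or whether a group's samples came from separate animals. The files analysed were 3 peak lists, for K17KO p53, for a p53 list whose genotype is unnamed and was taken as WT, and for H3K4me3. None names a time point, library or control. The comparison of 6 h with T0 could therefore not be made, no value below has a replicate error, and no p-value was computed.

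Cells leave G1 when D-type cyclins with Cdk4 and Cdk6, and then cyclin E with Cdk2, phosphorylate the pocket proteins Rb1, Rbl1 and Rbl2 and release the E2F transcription factors. E2F factors switch on the genes of S phase, among them the MCM helicase that opens replication origins. The mitotic genes, from cyclin B and Cdk1 to the Aurora and Polo kinases, are switched on later, through the CHR and CCAAT elements of their promoters. After DNA damage p53 is known to induce Cdkn1a, the kinase inhibitor p21, which keeps pocket proteins bound to cell cycle promoters as part of the DREAM complex. Most cell cycle genes are thus held to be lowered by p53 indirectly, with no p53 at their own promoters. H3K4me3, trimethylated lysine 4 of histone H3, marks the starts of active genes.

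The lists held 1101 peaks for K17KO p53, 2909 for WT p53 and 5464 for H3K4me3. The fold of a peak, as the authors deposited it, sets its fragments at the summit plus 1 over the local background plus 1. Whole numbers of fragments could be recovered for 100% of peaks in each list. The p53 peaks were shallow, with a median of 11 fragments over a background of 1.39 for K17KO and 7 over 0.992 for WT, against 148 over 90.7 for H3K4me3. Among 12 epidermal keratinocyte markers, Krt1 (4.84-fold), Krt10 (4.28-fold) and Krt15 (2.69-fold) had an H3K4me3 peak, and 9 had none, Krt5 and Krt14 included. The 3 with a peak are 25% of them, against 23.9% of all protein-coding genes. A peak was also at 1 of 6 fibroblast markers (Col1a2), 1 of 5 immune (Cd3g), 1 of 4 melanocyte (Pmel), 1 of 4 skeletal muscle (Actn3) and 0 of 4 endothelial ones, and at 0 of 4 genes of other organs. Krt5 and Krt14 are keratins of basal epidermis, so a gene known to be active in skin can lack a peak here. What the list was called against is unknown, and whether a peak marks a difference from that control rather than the presence of the mark was not tested. In whole skin, fewer cells with the mark and less of it per cell cannot be told apart.

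H3K4me3 peaks overlapped the promoter window (250 bases before to 50 after a RefSeq start site) of 6 of the 31 members with an entry in the promoter table, against 6% of the protein-coding genes with one. The members were Cdkn2a in G1, Cdc25a, E2f1 and E2f8 in S phase, and Ccnb2 and Top2a in mitosis. The upstream sequences that follow are those of the member whose such peak had the highest fold in each phase and of Top2a, which was added after its values were seen. They show what lies in front of starts whose promoter window a listed H3K4me3 peak overlapped. All are RefSeq sequences of GRCm38.p6, written 5′ to 3′ on the gene's strand. They end at the start site, except that Cdc25a stops short of it. Cdkn2a lies on the minus strand at chr4:89282193-89282442, in front of the inner of its start sites, which is 12427 bp inside the annotated gene. Cdc25a lies on the plus strand at chr9:109875329-109875547. Ccnb2 lies on the minus strand at chr9:70421555-70421804, and Top2a on the minus strand at chr11:99024190-99024439. Capitals mark E2F letters (TTTCGCGC, TTTGGCGC, TTTCCCGC or TTTGCCGC), CHR letters (TTTGAA or TTTAAA) and CCAAT, each on either strand.
Cdkn2a: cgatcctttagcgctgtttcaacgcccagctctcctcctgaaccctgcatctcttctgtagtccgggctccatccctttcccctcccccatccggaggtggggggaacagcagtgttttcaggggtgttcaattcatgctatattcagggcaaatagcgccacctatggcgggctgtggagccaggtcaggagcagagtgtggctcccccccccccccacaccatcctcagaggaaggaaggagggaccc
Cdc25a: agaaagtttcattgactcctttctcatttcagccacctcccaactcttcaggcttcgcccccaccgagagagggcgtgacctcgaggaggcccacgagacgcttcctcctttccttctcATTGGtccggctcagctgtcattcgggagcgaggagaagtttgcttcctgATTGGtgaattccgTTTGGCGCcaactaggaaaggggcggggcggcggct
Ccnb2: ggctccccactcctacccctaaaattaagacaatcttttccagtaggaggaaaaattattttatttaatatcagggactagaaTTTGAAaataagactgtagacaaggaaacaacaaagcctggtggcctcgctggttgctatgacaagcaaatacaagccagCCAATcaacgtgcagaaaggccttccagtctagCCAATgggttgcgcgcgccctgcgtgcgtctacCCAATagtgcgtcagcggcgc
Top2a: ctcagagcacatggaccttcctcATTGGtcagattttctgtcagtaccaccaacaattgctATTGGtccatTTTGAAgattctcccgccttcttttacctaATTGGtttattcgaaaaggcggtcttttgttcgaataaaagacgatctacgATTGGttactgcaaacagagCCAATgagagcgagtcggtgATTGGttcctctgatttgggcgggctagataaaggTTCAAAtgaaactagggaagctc
The Cdc25a promoter held E2F letters beginning 67 bases before the start and CCAAT boxes, written here as ATTGG, 131 and 81 bases before it. Ccnb2 held 3 CCAAT boxes, 87, 54 and 21 bases before its start, and CHR letters 167 bases before it. Top2a held 6 CCAAT boxes and 2 copies of the CHR letters, 179 and 23 bases before its start. The Cdkn2a sequence, that of the inner start, held none of these letters. A listed peak also overlapped the window of its outer start, which is not printed and held 1 copy of the E2F letters.

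The H3K4me3 list had a peak at 22 of the 40 members (55%, exact Clopper-Pearson 95% interval 38.5 to 70.7), against 23.9% of all protein-coding genes. The interval covers counting alone. By phase there were 7 of 14 G1 members (50%, 23.0 to 77.0), 9 of 15 S phase members (60%, 32.3 to 83.7) and 6 of 11 mitotic members (54.5%, 23.4 to 83.3). Each phase's share lay inside the intervals of the others. Gene length, which widens the target, had a median of 15002 bp for the members, against 17169 bp for all protein-coding genes.

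**Figure D1:**
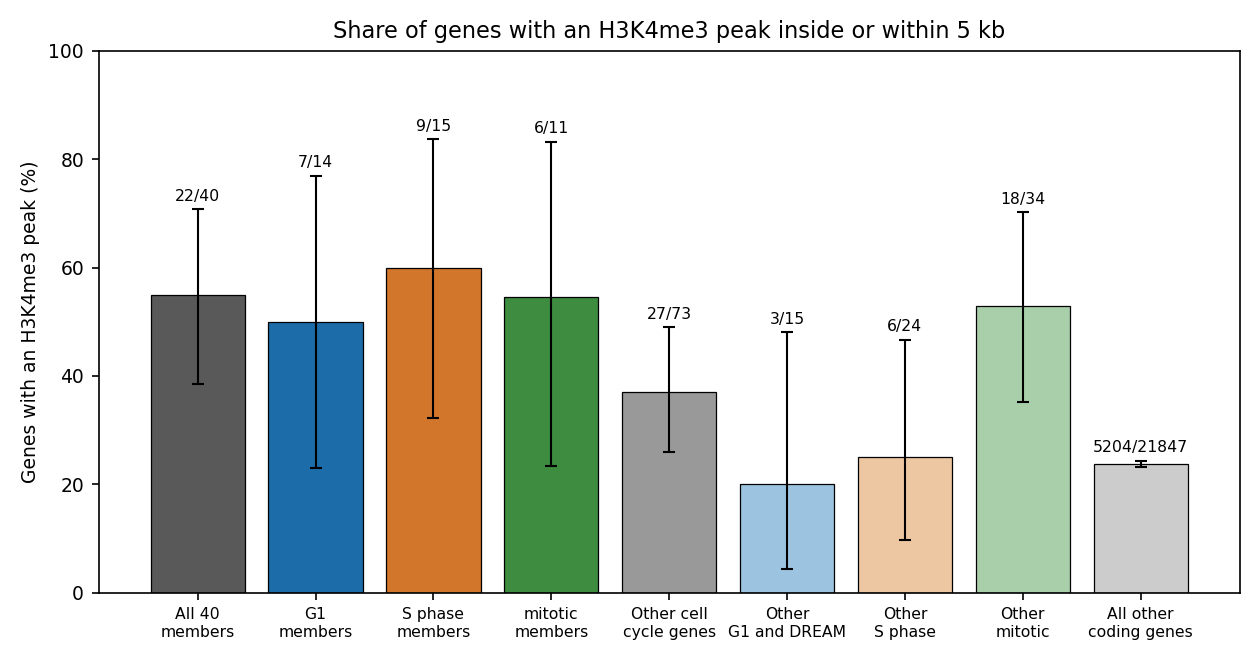
Bars give the percentage of genes with an H3K4me3 peak inside or within 5 kb, with exact 95% Clopper-Pearson intervals as error bars and the counts above them, for the 40 members, each phase, 73 other cell cycle genes and all other protein-coding genes. The members stood at 55% and each phase at 50% or more, against 23.8% of the other protein-coding genes.

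Among the G1 members, 0 of 5 D-type cyclins and partner kinases had an H3K4me3 peak, against 23.9% of all protein-coding genes. These were Ccnd1, Ccnd2, Ccnd3, Cdk4 and Cdk6. The nearest peak lay 12.1 kb from Ccnd3, 13.1 kb from Cdk6, 22.3 kb from Cdk4 and 44.9 kb from Ccnd2. For Ccnd1, the cyclin D1 gene, it lay 1089 kb away, the longest distance of the 40 members.

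Among the genes that restrain G1, peaks were at 4 of 5 kinase inhibitors and 2 of 3 pocket proteins, against 23.9% of all protein-coding genes. At a q-value of at most 0.01, Cdkn1c, Cdkn2a and Cdkn2c were lost, which left 1 of 5 inhibitors, Cdkn1b. The difference between roles was not tested. Cdkn1b, which encodes the cyclin E-Cdk2 inhibitor p27, had 5 H3K4me3 peaks over 11.8 kb, and it was the only member with more than 2. Its folds ran from 1.27 to 1.63, its fragments at the summit from 104 to 218, and its −log10 q from 0.689 to 4.88. The peak nearest its start lay upstream, with its summit at -427 bp from the start site, a fold of 1.53 and 214 fragments over a background of 139. A further peak lay inside the gene, and the pair beyond its far end lay 1535 and 2779 bp from it. At least 5 peaks were found at 0.517% of the protein-coding genes with any.

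Cdkn2a encodes 2 unrelated inhibitors, Ink4a and Arf, from separate start sites, and each start had its own H3K4me3 peak. The peak over the inner start, that of Ink4a, spanned chromosome 4 from 89282056 to 89282337 and had the highest fold of any member, 3.46. It rested on just 7 fragments over a background of 1.31, and its −log10 q was 1.12. The peak at the outer start, that of Arf, lay 470 bp outside the gene from 89294857 to 89295321, with a fold of 1.44, 139 fragments over 96.3 and a −log10 q of 1.60. By −log10 p the inner peak stood above just 11.8% of the list, and the outer was also among its weaker peaks. Cdkn2b, the neighbouring gene of the inhibitor p15, had none within 5 kb, and the Arf peak was its nearest at 11.2 kb.

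Cdkn1c, the gene of the inhibitor p57, had a peak inside it with 33 fragments over 16.8 (1.91-fold, −log10 q of 0.853). The peak counted for Cdkn2c, the gene of p18, lay 3380 bp outside it, inside the neighbouring gene 9630013D21Rik, with 107 fragments over 71.1. Rb1, the retinoblastoma gene, had a 1.42-fold peak inside it, 809 bp from the end with the higher coordinate, on 223 fragments over 157. No start site was listed for Rb1, so which end is its start is not given here. Rbl2, which encodes the pocket protein p130, had a 1.48-fold peak whose summit lay 243 bp after its start, on 235 fragments over 158. The third pocket protein gene, Rbl1 (p107), had its nearest peak 220 kb away. Myc, a transcription factor that drives entry into the cycle, had a 1.91-fold peak 390 bp outside the gene, on 160 fragments over 83.2. Its −log10 q of 8.85 was the highest in G1.

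Of the S phase members, the regulators of Cdk2 led. Ccne2, the gene of cyclin E2, had a 1.92-fold peak 189 bp inside the gene, with 168 fragments over 86.9 and a −log10 q of 9.52. The noncoding gene A630034I12Rik also holds that position. Cdc25a, the phosphatase that activates Cdk2, had a 1.82-fold peak on chromosome 9 from 109875609 to 109875871, with its summit 169 bp after the start and 236 fragments over 129. Its −log10 q of 11.7 was the highest of the members' 29 H3K4me3 peaks, and its −log10 p exceeded that of 97.8% of the list. The 1.38-fold peak counted for Cdk2 itself lay 1914 bp beyond the gene, inside Rab5b and Pmel, and was the same peak as that of the marker Pmel above. Ccne1, the cyclin E1 gene, had none, and its nearest lay 12.5 kb away.

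Among the E2F genes, 3 of 5 had a peak, against 23.9% of all protein-coding genes. E2f8, a repressor of S phase genes, had 2, of 1.67 and 1.45-fold, with summits 738 and 139 bp after its listed start. E2f3 had a 1.41-fold peak with its summit 186 bp after the inner of its 2 start sites. E2f1, the activator that pushes cells into S phase, had a weak peak of 1.34-fold on 196 fragments over 146. Its summit lay at -164 bp from the only start in the table, a start 466 bp inside the annotated gene. E2f2 and E2f7 had none, with the nearest peaks 10.6 and 378 kb away.

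Of the MCM helicase genes, 3 of 6 had a peak, against 23.9% of all protein-coding genes. Mcm3 had a 1.77-fold peak with its summit 228 bp after the start and 181 fragments over 102. Mcm4 had one of 1.55-fold, 302 bp inside the gene, on 166 fragments over 107, which also counted for its neighbour Prkdc. The peak counted for Mcm2 was the weakest of all 29, at 1.25-fold with a −log10 q of 0.363, and lay 3917 bp outside the gene inside Tpra1. Mcm5, Mcm6 and Mcm7 had none, and their nearest lay 15.6, 228 and 79.3 kb away. At a q-value of at most 0.1, or with each peak given to its nearest gene alone, Mcm2 was lost. The MCM proteins form a single ring, and whether its genes differ in the mark was not tested.

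All 7 peaks of the mitotic members lay within 1 kb of a gene end, against 6 of 12 peaks of the G1 members and 6 of 10 of the S phase members. Cdkn1b alone held 5 of the 12 in G1. By gene, 6 of the 6 mitotic members with a peak had one there, 5 of 7 in G1 and 6 of 9 in S phase. Over all protein-coding genes it was 3518 of the 5226 with a peak. The difference between phases was not tested. Aurka, the Aurora A kinase gene, had a peak on either side of its start. The downstream one, on chromosome 2 from 172370140 to 172370453, had the second highest fold of the members, 2.097, with 128 fragments over 60.5 and a −log10 q of 9.09. The upstream one, of 1.56-fold on 235 fragments over 151, lay inside the divergent neighbour Cstf1. Ccnb2, the cyclin B2 gene, followed with 1.94-fold on 153 fragments over 78.5, and Plk1, the Polo kinase gene, with 1.86-fold on 166 over 88.8. Top2a, the topoisomerase that untangles sister chromosomes, had a 1.77-fold peak with 176 fragments over 99.1. Cdc20, the activator of the anaphase-promoting complex, had 1.64-fold on 119 over 72.0, and Aurkb, the Aurora B gene, 1.51-fold on 198 over 131.

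The mitotic members without an H3K4me3 peak were Ccna2 (cyclin A2), Ccnb1 (cyclin B1), Cdk1, Bub1 and Mki67. Ccnb1 and Cdk1 encode the main partners of mitotic entry, and their nearest peaks lay 48.2 and 46.2 kb away. Bub1, a spindle checkpoint kinase gene, had none within 294 kb. Mki67 encodes the proliferation marker Ki-67, and its nearest lay 37.7 kb away. The nearest to Ccna2 was 12.0 kb away.

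**Figure D2:**
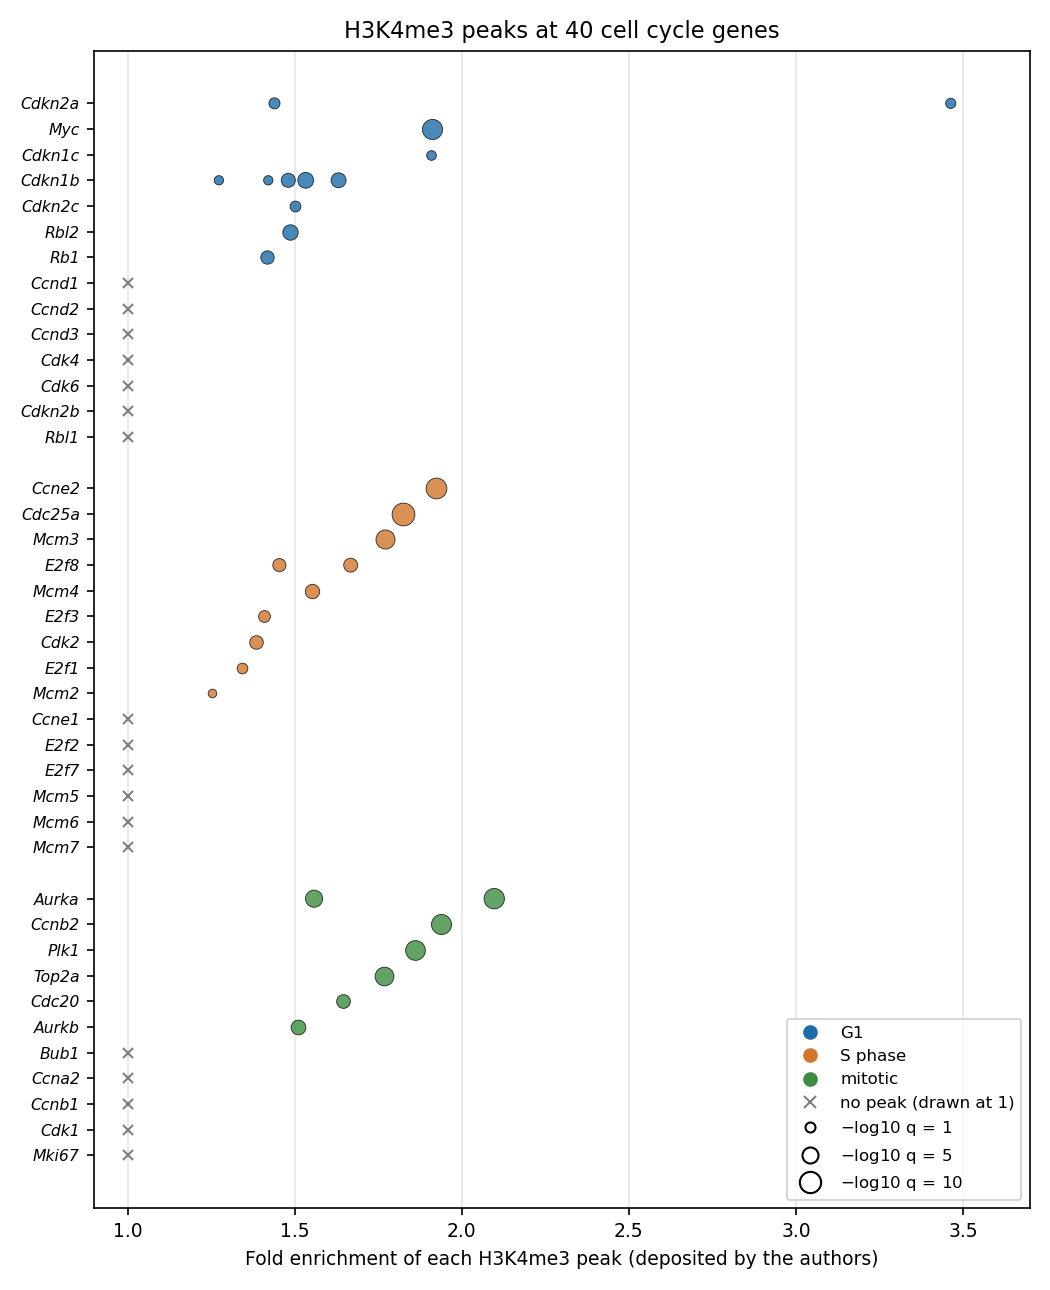
Each point is a deposited H3K4me3 peak of a member, placed by its fold enrichment (horizontal axis, linear) and sized by its −log10 q, with genes grouped by phase and grey crosses for members with no peak. Folds lie between 1.25 and 2.097 except for the 3.46-fold peak of Cdkn2a, whose small point reflects a −log10 q of 1.12.

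The highest −log10 q values were those of the S phase members Cdc25a and Ccne2, and the highest fold that of Cdkn2a in G1. Taking each member's peak of highest fold, the median −log10 q was 3.04 for G1, 3.41 for S phase and 7.94 for the mitotic members, against 3.60 for all 5226 protein-coding genes with a peak. The median fold was 1.63 for G1, 1.55 for S phase and 1.81 for the mitotic members, against 1.62. Over all 22 members it was 1.66, and 13 of them lay above the median of all such genes. A fold of 2 or more was found at 2 of 22 members (9.09%), against 23.6% of all genes with a peak. By gene, the members' highest folds were thus near the middle of those of all genes with a peak, with few at the upper end. By peak, the median fold was 1.55 over the members' 29 peaks, below the 1.66 of the list. No test was made between the phases, whose genes were sorted by their known role and not drawn at random.

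How deeply each peak was read was described by its fragments and background. The median over the members' 29 H3K4me3 peaks was 176 fragments over a background of 102, against 148 over 90.7 for the list. Background ran from 60.5 at Aurka to 190 at Cdk2, except at the inner Cdkn2a peak (1.31) and at Cdkn1c (16.8). At the higher backgrounds a fold under 2 reached a high −log10 q, as at Cdc25a, while the 3.46-fold Cdkn2a peak did not. The fold and the −log10 q therefore order the members differently.

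**Figure D3:**
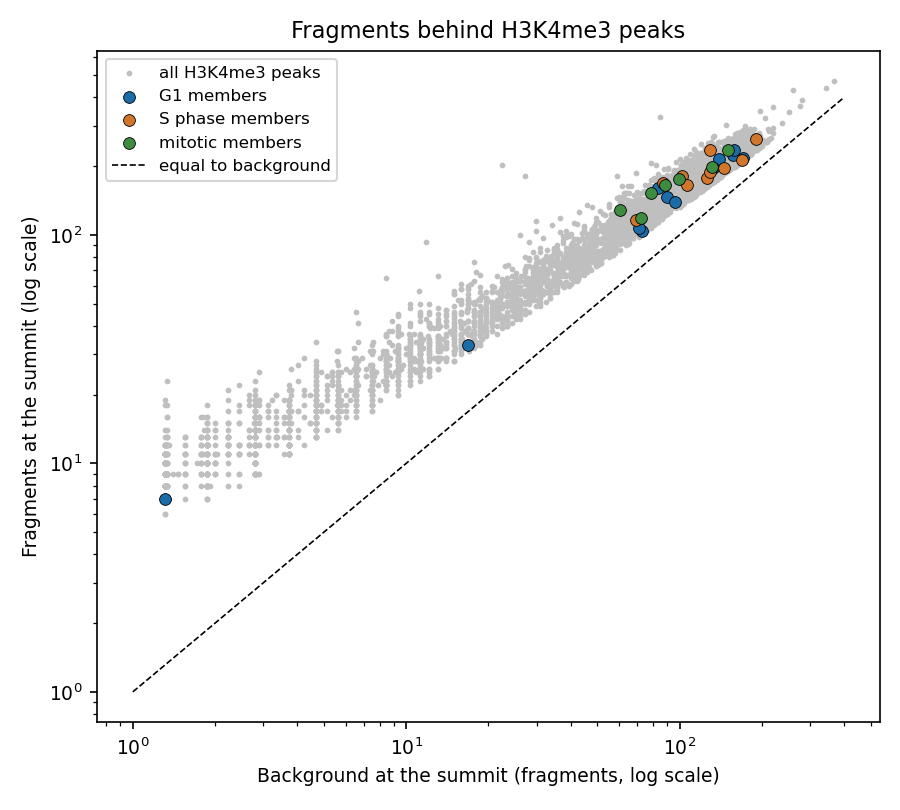
Fragments at the summit (vertical axis, log scale) against the background there (horizontal axis, log scale) for all 5464 H3K4me3 peaks in grey and the 29 peaks of the members in colour by phase. The dashed line marks equal values, and all 29 members' peaks lie above it, at backgrounds of 1.31 to 190 with a median of 102.

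At most members with a summit within 1 kb of a listed start site, the nearest summit lay just after it. Some peaks lay far from any listed start, with summits at 8980 bp for Cdk2, 7808 bp for Cdkn2c and -3711 bp for Mcm2. Among the 31 members with an entry, 14 had an H3K4me3 summit within 5 kb of a start and 13 within 1 kb. Of these 13, 11 lay downstream (84.6%), with a median of 160 bp after the start, counting the 2 upstream ones as negative. For all protein-coding genes the share downstream was 80.6% and the median 211 bp. The 5 mitotic members fell closest together, from 145 bp for Ccnb2 to 236 bp for Cdc20. Cdkn1b and E2f1 were the members with a nearest summit upstream within 1 kb. The position of these peaks was thus near that of genes at large. In all, 17 of 40 members had a peak midpoint within 1 kb of a gene end, against 16.1% of all protein-coding genes.

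**Figure D4:**
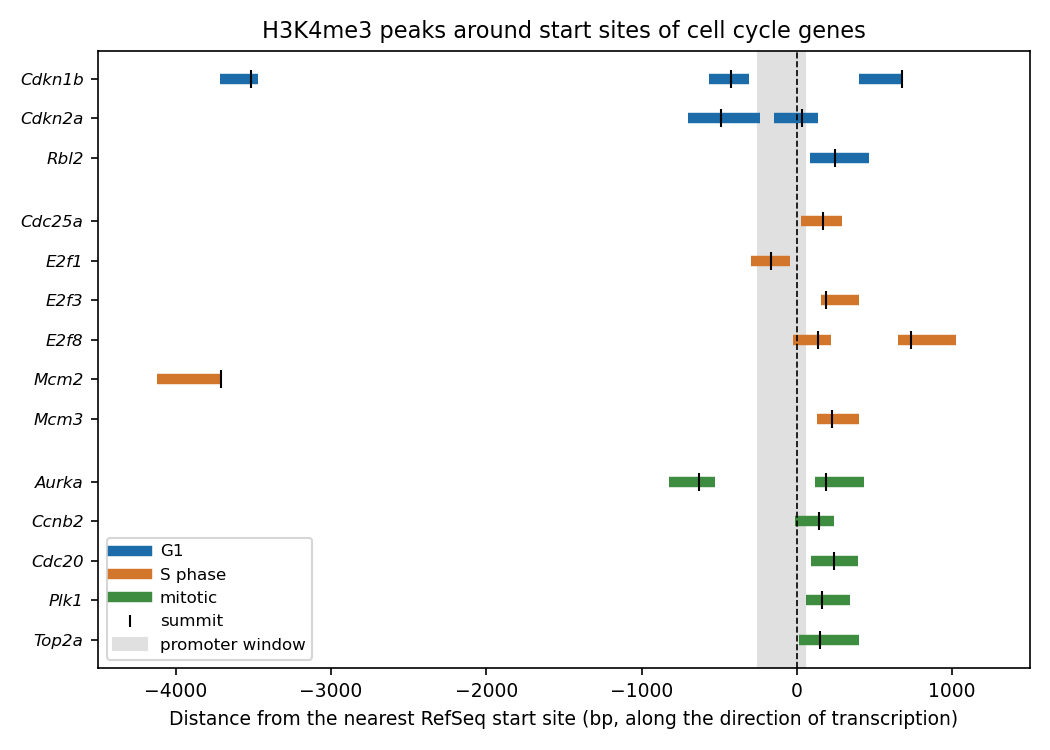
Bars show H3K4me3 peaks of members by phase, along the distance in bp from the nearest listed start site (dashed line, direction of transcription to the right), with black ticks at the summits and the promoter window shaded. Mitotic summits lie 145 to 236 bp after the start except for the upstream Aurka peak, and the bars of Cdkn2a are drawn from separate starts.

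Some peaks served neighbours too. Of the 29, 7 also counted for another protein-coding gene, 4 of them mitotic, at Aurka (with Cstf1, both peaks), Ccnb2 (with Rnf111) and Cdc20 (with Elovl1). For 3 members, Cdkn2c, Cdk2 and Mcm2, the sole peak lay outside the member and inside a neighbouring gene. Just inside the 5 kb limit were the Mcm2 peak at 3.92 kb and the Cdkn2c peak at 3.38 kb, and the nearest beyond it were E2f2 at 10.6 kb and Cdkn2b at 11.2 kb.

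Whether p53 itself sat at these genes was read from the p53 lists. In the K17KO list 1 of 40 members had a peak (2.50%, exact interval 0.0633 to 13.2), against 3.79% of all protein-coding genes. In the WT list 0 of 40 did (upper limit of the exact interval 8.81%), against 6.75% of all protein-coding genes. Both intervals include the background. Within 1 kb of a gene end there were 0 members in either list, against 1.24% of all protein-coding genes for K17KO and 0.795% for WT. A p53 peak overlapped the promoter window of 0 of 31 members, against 0.52% of genes for K17KO and 0.263% for WT. Within 20 kb there were 2 members in the K17KO list (5.94% of all genes) and 2 in the WT list (10.8%). Cdkn1a, which is not a member and was added after its values were seen, had a 6.57-fold peak in the WT list and none in the K17KO list. The lists were called separately, and a difference between the genotypes at Cdkn1a was not tested. No site at a member could be in more than 1 of the 3 lists, because the sole p53 peak was at a gene with no H3K4me3 peak.

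The K17KO peak belonged to Mki67. It lay on chromosome 7 from 135718993 to 135719346, with its summit at -2822 bp from the start site and outside any annotated gene. Its fold of 3.73 rested on 10 fragments over a background of 1.95, with a −log10 q of 1.57. That fold exceeded 15.8% of the K17KO list, so it was one of the weaker peaks there. At a q-value of at most 0.01, or among the 50% of peaks with the highest folds, the peak was lost and 0 members remained. The nearest WT p53 peak to Mki67 lay 398 kb away. The folds of separate lists are not compared.

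Most members, like most protein-coding genes, had no p53 peak of either list within 100 kb. A K17KO peak lay within that distance of 17.5% of members, against 15.5% of all protein-coding genes. A WT peak did so for 35% of members, against 28.2%. Within 50 kb the shares were 10% of members for K17KO, against 9.73%, and 15% for WT, against 17.9%. The median distance from gene to nearest peak was 687 kb in the K17KO list, against 581 kb for all protein-coding genes, and 120 kb in the WT list, against 242 kb. The WT list has more peaks, so the lists' distances are not comparable with each other. Next after Mki67 in the K17KO list came Cdk6 at 13.1 kb (3.88-fold, 14 fragments), Ccnd3 at 32.9 kb (5.21-fold, 10 fragments) and Cdc25a at 37.7 kb (4.602-fold, 8 fragments). In the WT list the nearest were Cdk6 at 18.04 kb (3.67-fold, 6 fragments), Bub1 at 18.8 kb (3.51-fold, 6 fragments) and Ccna2 at 21.2 kb (5.02-fold, 9 fragments). Cdk6 was thus within 20 kb of a peak in both p53 lists, at different sites. The K17KO peak near Cdk6, on chromosome 5 from 3543897 to 3544339, overlapped the H3K4me3 peak nearest that gene, from 3543881 to 3544287. Both lay beyond the 5 kb limit.

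By phase, the median distance in the K17KO list was 698 kb for G1, 674 kb for S phase and 580 kb for mitotic members. In the WT list it was 175, 89.7 and 259 kb. Within 100 kb of a WT peak lay 8 of 15 S phase members, 4 of 14 G1 members and 2 of 11 mitotic members, against 28.2% of all protein-coding genes. Within 100 kb of a K17KO peak lay 2, 4 and 1 of them, against 15.5%. Within 50 kb of a WT peak lay 2 of 15 S phase, 2 of 14 G1 and 2 of 11 mitotic members, against 17.9%. The higher S phase share was thus seen at 100 kb and not at 50 kb, and it was not tested. The S phase members within 100 kb of a WT peak included Ccne2 at 34.4 kb, Mcm3 at 49.5 kb, Cdk2 at 58.5 kb and Ccne1 at 60.1 kb.

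**Figure D5:**
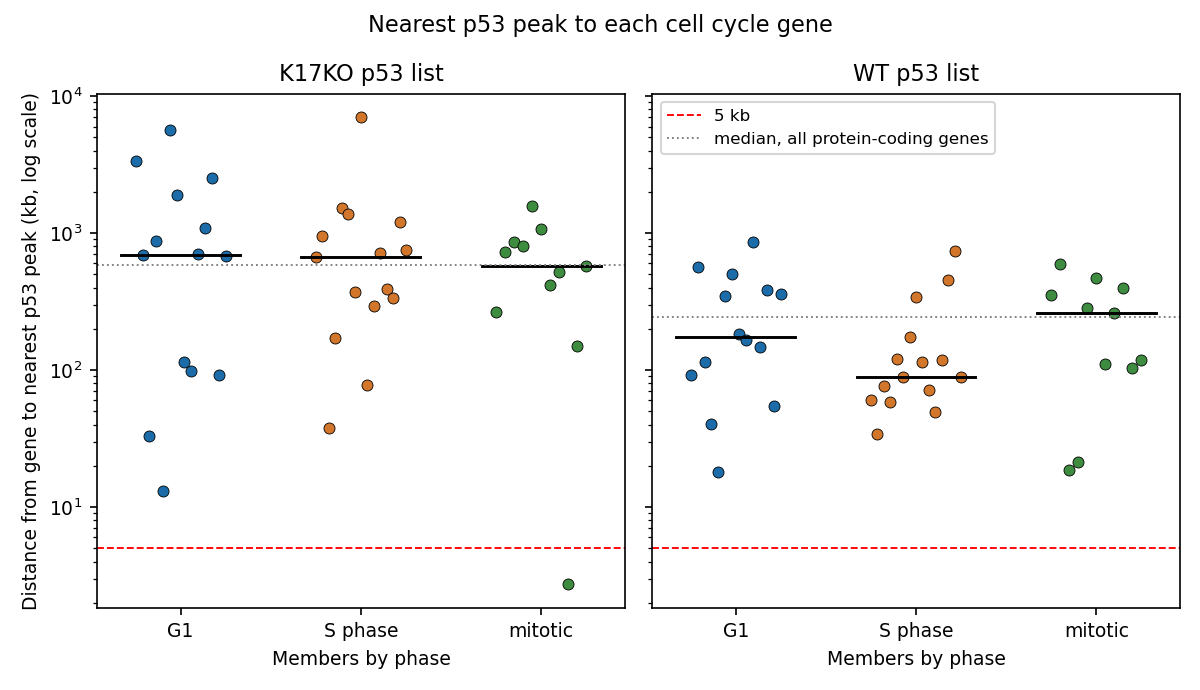
Distance in kb (log scale) from each member to the nearest p53 peak, in the K17KO list (left) and the WT list (right), by phase, with black bars at the group medians, a dotted line at the median of all protein-coding genes and a dashed line at 5 kb. Mki67, at 2.72 kb in the K17KO list, is the sole point under the dashed line.

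The wider cell cycle was examined through 73 further genes in 3 groups. H3K4me3 peaks were at 27 of them (37.0%, exact interval 26.0 to 49.1). By group there were 18 of 34 mitotic genes (52.9%), 6 of 24 S phase genes (25%) and 3 of 15 genes of G1 and the DREAM complex (20%). All protein-coding genes stood at 23.9%, near the shares of the last 2 groups. The members had peaks at 6 of 11 mitotic genes (54.5%), 9 of 15 S phase genes (60%) and 7 of 14 G1 genes (50%), and no difference between members and these genes was tested. The highest folds in the mitotic group were at Kif23, a cytokinesis motor gene (2.11), Cdc25c, the phosphatase that activates Cdk1 (1.94), Anln (1.85) and Espl1, the separase gene (1.85). In S phase they were at Cdc6, an origin licensing gene (2.24), and at Pold1, a DNA polymerase delta gene (2.02), whose peak lay inside Nr1h2, then Cdc45 (1.85) and Rrm2 (1.76). The Cdc6 peak rested on 18 fragments over 7.48. In the G1 and DREAM group the peaks were at Lin54, a DREAM subunit (1.79), Cdkn3 (1.56) and Dyrk1a (1.32).

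In the K17KO p53 list 6 of these 73 genes had a peak (8.22%, exact interval 3.08 to 17.04, which includes the 3.79% of all genes). Hmmr (5.84-fold, 16 fragments over 1.91), the spindle checkpoint gene Mad2l1 (5.21-fold), the kinetochore gene Cenpf (5.14-fold) and Incenp, the partner of Aurora B (4.09-fold), each had theirs within 1 kb of a gene end. Peaks within 1 kb were thus at 4 of the 73 genes, against 1.24% of all protein-coding genes. The Hmmr peak lay inside the neighbour Nudcd2. The others were Lin52 (4.98-fold) and Pold1 (3.47-fold). In the WT p53 list 5 had a peak (6.85%, 2.26 to 15.3), which were 5 of the 34 mitotic genes (14.7%, 4.95 to 31.1, an interval that includes the 6.75% of all genes). The 11 mitotic members had 0. Incenp (4.401-fold) had its peak 4910 bp outside the gene. Bub1b (4.20-fold) and Mad1l1 (3.69-fold), both spindle checkpoint genes, and 2 more at 3.51-fold had theirs inside the gene, far from its ends. These shares stand beside 3.79% and 6.75% of all protein-coding genes. The depth of 6 to 16 fragments a peak limits what either p53 list can show.

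The promoter letters that the printed sequences carry were counted in all 31 members with an entry, in the 250 bases before each listed start. A gene with several starts counted if any of them held the letters. Without an entry, and not counted, were Ccnd1, Ccnd2, Cdkn1c, Rb1 and Myc in G1, Ccne2 and Mcm4 in S phase, and Ccna2 and Aurkb in mitosis. E2F letters were in 10 of 31 (32.3%), against 2.72% of 17492 protein-coding genes. They were in 7 of 13 S phase members, 2 of 9 G1 members and 1 of 9 mitotic members. Mcm6 held 3 copies and Mcm5 held 2. CCAAT was in 9 of 9 mitotic members, 11 of 13 S phase members and 2 of 9 G1 members, against 39.5% of all genes. CHR letters were in 7 of 9 mitotic members, 6 of 13 S phase members and 3 of 9 G1 members, against 26.3%. No match overlapped a match to another of the motifs in these promoters.

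The letters were also counted in members with and without an H3K4me3 peak. E2F letters were in 4 of 16 members with a peak and 6 of 15 without, CHR letters in 9 and 7, and CCAAT in 12 and 10. For GC content and CpG number, a gene with several starts was given its highest value. The median GC content was 60.6% for members with a peak and 63.6% for those without, against 56.4% for all genes. The median number of CpG dinucleotides in the window was 21 with a peak and 19 without, against 11 for all genes. A match to such letters is a description of the sequence and does not show that a factor was bound.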

How the data were processed

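The samples were chromatin immunoprecipitations of mouse back skin, and the files were 3 peak lists with no header. Bowtie2 version 2.2.5, SAMtools version 1.7, MACS2 version 2.1.2 and the build mm10 are listed, without their roles, per the submitters' processing notes. The authors deposited for each peak a fold enrichment, which is a ratio of signal to local background. The −log10 p and −log10 q values of each peak were deposited by the authors too, as were its summit offset and a score equal to 10 times the −log10 p without decimals. Lists were called separately, so these values rank peaks inside 1 list.

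Fragments and background were recovered from the fold and the −log10 p, taken as an upper Poisson tail, to a tolerance of 0.001 in −log10 p. Peaks were assigned to genes by midpoint, and all 40 members matched. Python 3.11.15, pandas 2.3.3, numpy 2.4.6 and scipy 1.17.1 were used. On simulated data the rule found all 200 planted genes among 21887. No test was made, because no list has replicates. Clopper-Pearson intervals at 95% treat neighbouring genes as independent and cover counting error only. The members, phases and other gene lists were chosen with earlier results of these data known. Named were all members, neighbours holding their peaks, skin markers, and up to 4 other cell cycle genes of highest fold a group, with Cdkn1a added after its values were seen. The planned search for p53 half-sites was not run. Sequence came from the RefSeq promoter table alone, so the peaks' own sequences were not used here. Alternatives were other windows, thresholds and overlaps.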

Additional observations from a re-analysis of the deposited data

How the results depend on the processing

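No paired analysis was possible because the peak lists carry no replicate or library. Leaving out a replicate was not possible for the same reason. Of the recomputed counts 75 stayed within 1.5 times the reported one, or at 0 where that was reported, and 15 moved. Many of the 75 could not have moved. A p53 count of 0 could rise only with the 20 kb window, because the other settings narrow the rule or drop peaks. With that window only the S phase counts of the p53 lists stayed at 0. The looser q-value limit used above removed no K17KO peak, so it could not change that list's counts. The tally of 75 is therefore no measure of robustness for the p53 lists. In the H3K4me3 list the upper 50% of peaks by fold left 11 of the 22 members, 3 in G1 and 4 in S phase, against 10.8% of all protein-coding genes, and a q-value of at most 0.01 left 4 in G1, without Cdkn1c, Cdkn2a and Cdkn2c, and 17 members in all, against 18.4%. In the K17KO p53 list Mki67 was lost within 1 kb of a gene end, at the same q-value limit and in the upper 50% by fold, which left 0 members and 0 mitotic ones. A 20 kb window raised the K17KO count to 2 members, with 1 in G1 (Cdk6), and the WT p53 count to 2, with 1 in G1 (Cdk6) and 1 in mitosis (Bub1). All protein-coding genes stood at 5.94% and 10.8% in that window, and at 1.24% for K17KO within 1 kb. With each peak given to its nearest gene alone, the H3K4me3 count was 20, without Cdk2 and Mcm2, against 19.0%. With a 20 kb window it was 29, against 32.9% of all genes. In the p53 lists, depths of about 10 fragments a peak limit detection, and a gene without a peak is not shown to be unbound.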
